A study of Caenorhabditis elegans with 6 samples.

Results

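Isocitrate lyase, phosphoenolpyruvate carboxykinase, pyruvate carboxylase and 7 further enzymes of central carbon metabolism were followed in whole Caenorhabditis elegans worms exposed to gold nanoparticles. The 10 genes are icl-1, pck-1, pyc-1, cts-1, aco-1, aco-2, idh-1, ogdh-1, mdh-1 and mdh-2. They were taken as every probe set whose single gene symbol in the array's annotation is one of these names, which gave 15 probe sets for 10 of 10 genes, among 17118 genes with a probe set of their own. The rule uses only gene names, but the names were chosen with earlier results of these data known.

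The Au-NP group held 3 dishes of wild-type N2 worms, placed as age-matched L3 larvae in 50% K-medium, a dilute salt solution, with citrate-coated gold particles of 4 nm at 5.9 mg/L for 12 h and then kept in particle-free medium for 12 h more. The control group held 3 dishes of the same strain and stage, which the labels call only control. About 2000 worms were used per dish, RNA was taken at 24 h, and each RNA sample went on 1 Affymetrix array. Whether food was given is not in the labels. They also name no separate cultures for the dishes, so a p-value reflects dish-to-dish spread only, which may be technical.

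The citric acid cycle, in the mitochondria, oxidises acetyl groups to carbon dioxide and passes their electrons to the respiratory chain. The glyoxylate cycle bypasses its decarboxylating steps, so that the carbon of fat can be kept, and gluconeogenesis then draws on oxaloacetate to make sugar. Worms, unlike mammals, can run the whole route from fat to sugar, and they are known for doing so as embryos, starved larvae and dauers. ICL-1 carries both activities that define the bypass, isocitrate lyase and malate synthase, in 1 protein.

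Signals are given on the deposited log2 scale, as the authors' RMA values, and differences are Au-NP minus control with the moderated standard error (SE) of a limma fit across all 22548 probe sets (n = 3 arrays per group). Array medians lay between 7.03 and 7.09, and the values of the 15 member probe sets lay between 9.84 and 14.35. Levels of different probe sets are not comparable, so only differences between groups are set side by side. Au-NP replicate 3 correlated with the other Au-NP arrays at r of 0.988 and 0.990, below the 0.997 of Au-NP replicates 1 and 2 (Pearson's r across probe sets), so member values, pathway counts, tissue markers and gene pairs are also given without it. Its r with control replicates 1 to 3 was 0.990, 0.987 and 0.989, about as high as with its own group. For Au-NP replicates 1 and 2 the r with the controls lay between 0.985 and 0.990. Markers fixed for 8 tissues summed to a log2 signal of at least 11.83 on every array. Such a sum follows the strongest probe sets of a list, and single marker probe sets averaged as low as 4.42. It therefore cannot show whether each tissue was present in these whole-worm samples.

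Of the 10 genes, icl-1, pck-1, ogdh-1 and mdh-2 fell in the Au-NP group relative to the control group, and pyc-1, cts-1, aco-1, aco-2, idh-1 and mdh-1 did not pass. Among the 15 probe sets, 7 fell at a limma adjusted p under 0.05 and 0 rose, against 5.68% of all probe sets that fell and 6.24% that rose. At an unadjusted limma p under 0.05 the counts were 12 lower and 0 higher. How many of all probe sets or genes had such a p was not counted, for this or for later unadjusted counts. The 4 of 10 genes that fell stand against 4.94% of all genes with a probe set that fell. Since the list was drawn up with results known, these shares are a description and not independent evidence. The difference was negative in all 15 probe sets, as in 42.6% of all probe sets, with a median of -0.61 against 0.03 over all probe sets tested. The 3 Au-NP values lay wholly below the 3 control values in 8 of the 15, and over all probe sets in 11.6%. Directions are those of the array labels. For the abu genes, of which 6 of 11 fell here and 0 rose, they are the reverse of what is remembered of the published study, an account that could not be looked up, and the files do not settle which is right.

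**Figure D1:**
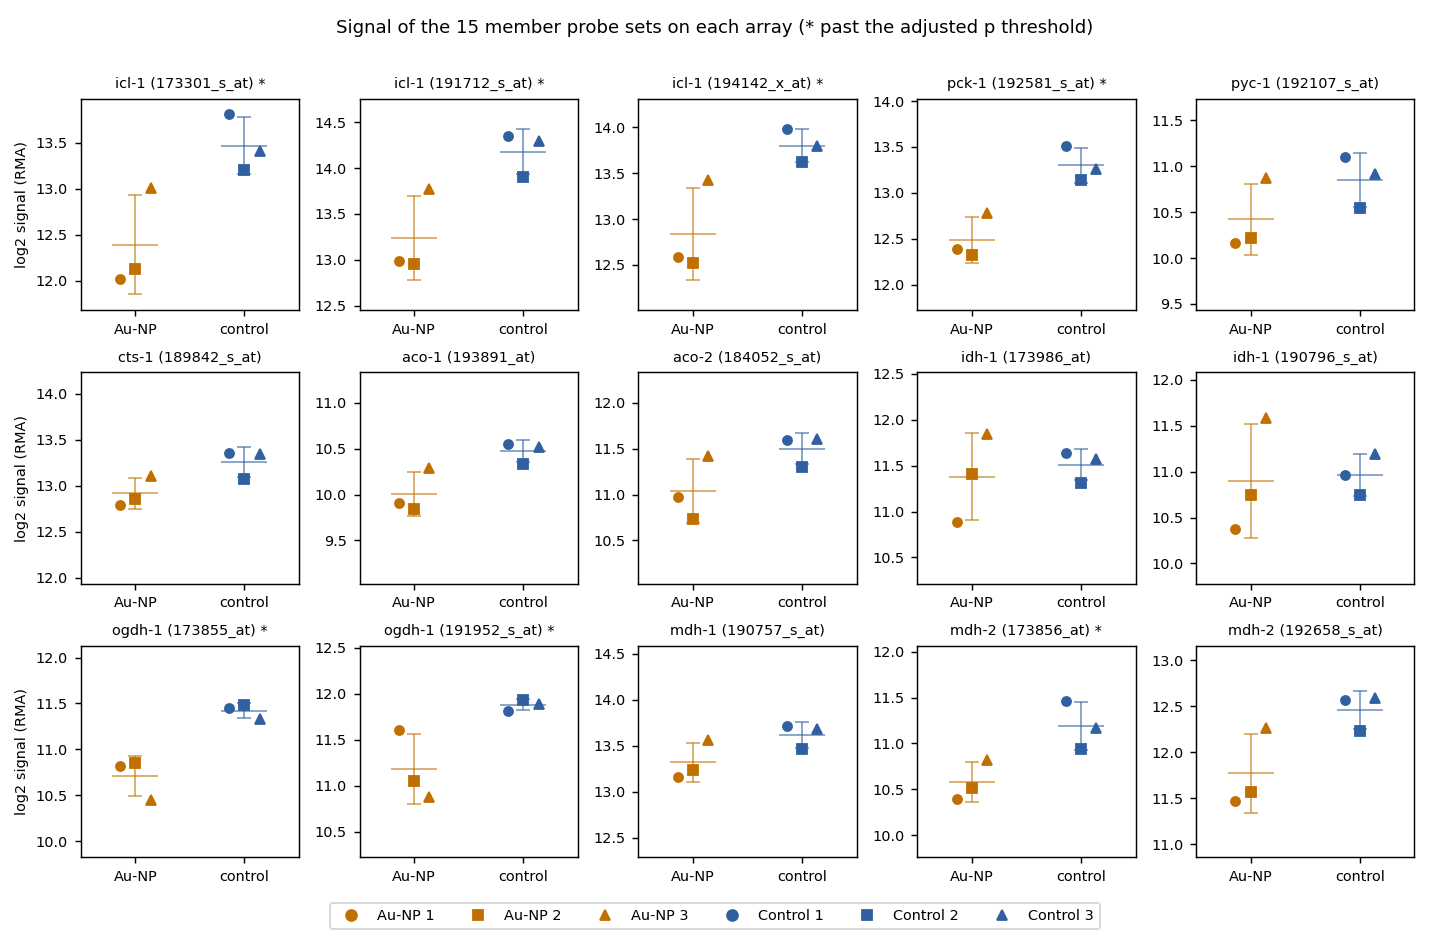
Log2 signal (RMA) of the 15 member probe sets on each of the 6 arrays, with Au-NP at the left and control at the right of each panel. Symbols mark replicate numbers, bars the mean and SD of 3 arrays, every panel spans the same height, and an asterisk marks a limma adjusted p under 0.05. In 13 panels Au-NP replicate 3 is the highest Au-NP array and control replicate 2 the lowest control, and the ogdh-1 panels are the exceptions.

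The gene for the bypass itself, icl-1, had the largest differences among the 10 genes, and all 3 of its probe sets fell. Probe set 173301_s_at read 12.02, 12.13 and 13.01 in Au-NP replicates 1 to 3 and 13.81, 13.20 and 13.41 in control replicates 1 to 3. The groups did not overlap, but Au-NP replicate 3 lay nearer to the lowest control than to the other Au-NP arrays. The difference was -1.09 ± 0.27 (SE; limma adjusted p = 0.0439), with a control level 2.13 times that of the Au-NP group.

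The second icl-1 probe set, 191712_s_at, read 12.99, 12.95 and 13.77 in the Au-NP arrays and 14.35, 13.90 and 14.29 in the controls, a difference of -0.94 ± 0.23 (limma adjusted p = 0.0423). The third, 194142_x_at, read 12.59, 12.52 and 13.42 in the Au-NP arrays and 13.98, 13.62 and 13.79 in the controls, a difference of -0.95 ± 0.24 (limma adjusted p = 0.0423). In all 3 probe sets Au-NP replicates 1 and 2 lay close together, replicate 3 lay above them, and the groups did not overlap. All 3 carry suffixes that mark possible cross-hybridization with related sequences. Without Au-NP replicate 3 their differences were -1.40, -1.21 and -1.24 (limma adjusted p = 0.00153, 0.00145 and 0.000657). With any single array other than that one left out, the 3 icl-1 differences stayed between -1.22 and -0.79 and the limma adjusted p lay between 0.0695 and 0.155, so the call did not hold with 5 arrays unless Au-NP replicate 3 was the one removed. With all 6 arrays and variances fitted with trend and robust settings, all 3 icl-1 probe sets lost the call (limma adjusted p = 0.0929, 0.0874 and 0.0878).

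The gluconeogenic pair differed in how far each stood from the spread of its arrays. The gene pck-1 encodes a phosphoenolpyruvate carboxykinase, the enzyme that commits oxaloacetate to sugar synthesis. Its only probe set, 192581_s_at, has a suffix of possible cross-hybridization. It read 12.39, 12.32 and 12.78 in the Au-NP arrays and 13.51, 13.14 and 13.26 in the controls. The groups were apart, with a difference of -0.81 ± 0.15 (SE; limma adjusted p = 0.0170) and a control level 1.75 times that of the Au-NP group. Its call held without Au-NP replicate 1, Au-NP replicate 3 or control replicate 2, and was lost without Au-NP replicate 2, control replicate 1 or control replicate 3 (limma adjusted p = 0.0739, 0.0602 and 0.0617).

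Pyruvate carboxylase, pyc-1, which makes oxaloacetate from pyruvate, read 10.16, 10.22 and 10.87 in the Au-NP arrays and 11.10, 10.54 and 10.91 in the controls. Here Au-NP replicate 3 lay within the control range and the groups overlapped. The difference of -0.44 ± 0.22 did not pass (limma adjusted p = 0.256, 95% interval -0.94 to 0.07). Leaving out Au-NP replicate 3 gave -0.66 (limma adjusted p = 0.0196). With any other single array left out pyc-1 did not pass (limma adjusted p up to 0.529).

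**Figure D2:**
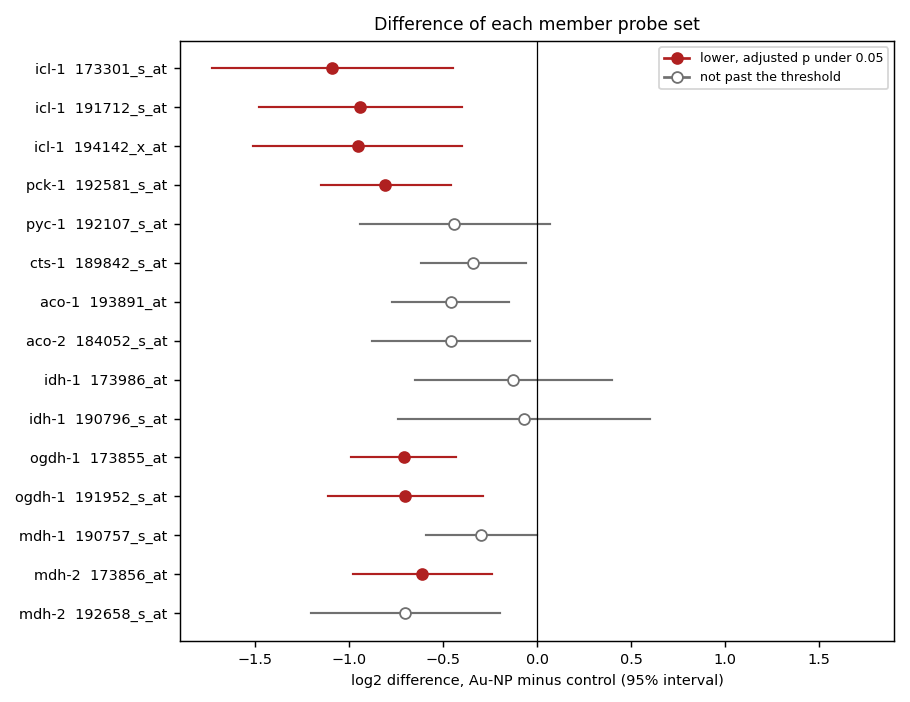
Log2 difference, Au-NP minus control, of each member probe set with its 95% interval from limma (3 arrays per group). Filled red points fell at an adjusted p under 0.05. The points run from -1.09 for icl-1 to -0.07 for idh-1, and all lie left of 0.

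Among the early enzymes of the citric acid cycle no member passed the threshold. Citrate synthase, cts-1, which joins acetyl-CoA to oxaloacetate, read 12.79, 12.86 and 13.11 in the Au-NP arrays and 13.36, 13.07 and 13.35 in the controls. Au-NP replicate 3 lay just above control replicate 2, and the difference was -0.34 ± 0.12 (SE; limma adjusted p = 0.116). Mitochondrial aconitase, aco-2, which turns citrate into the isocitrate that ICL-1 and isocitrate dehydrogenase share as a substrate, read 10.97, 10.73 and 11.42 in the Au-NP arrays and 11.59, 11.30 and 11.61 in the controls. Again only Au-NP replicate 3 reached into the control range, and the difference was -0.46 ± 0.18 (limma adjusted p = 0.148). Without that array cts-1 had -0.43 and aco-2 -0.65 (limma adjusted p = 0.0305 and 0.00971). With any other single array left out neither passed (limma adjusted p up to 0.298 and 0.382).

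The 2-oxoglutarate dehydrogenase subunit ogdh-1, which acts after isocitrate dehydrogenase and is a decarboxylating step that the bypass skips, fell in both of its probe sets. Probe set 173855_at read 10.82, 10.85 and 10.45 in the Au-NP arrays and 11.45, 11.48 and 11.33 in the controls. The groups were well apart, and here Au-NP replicate 3 was the lowest array of all. The difference was -0.71 ± 0.12 (SE; limma adjusted p = 0.0135), the smallest p of the 15 probe sets. Probe set 191952_s_at read 11.61, 11.05 and 10.88 in the Au-NP arrays and 11.81, 11.93 and 11.89 in the controls, a difference of -0.70 ± 0.18 (limma adjusted p = 0.0444).

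The first ogdh-1 probe set lost its call without control replicate 1 or control replicate 2 (limma adjusted p = 0.0539 and 0.0547). The second lost it without Au-NP replicate 2 or any single control (limma adjusted p between 0.108 and 0.156). Both held without Au-NP replicate 3, at -0.58 and -0.55 (limma adjusted p = 0.00477 and 0.0378). The gene spans 7015 bp with introns, the longest of the 10 genes in the WBcel235 gene table, and calls in these data differed with gene span, with a median of 5861.5 bp among probe sets that fell against 2423 bp over all with a known span. With each array corrected for its trend with span, the second probe set had -0.59 (limma adjusted p = 0.0764), and 6 of the 15 member probe sets fell. Over all probe sets 952 fell in that fit, against 1281 without the correction.

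Malate dehydrogenase regenerates oxaloacetate, and the worm has a mitochondrial form, mdh-2, and a cytosolic form, mdh-1. Probe set 173856_at of mdh-2 read 10.40, 10.51 and 10.82 in the Au-NP arrays and 11.46, 10.94 and 11.17 in the controls. The groups were apart, with a difference of -0.61 ± 0.16 (SE; limma adjusted p = 0.0479). The other mdh-2 probe set, 192658_s_at, read 11.47, 11.57 and 12.26 in the Au-NP arrays and 12.57, 12.23 and 12.59 in the controls. Its difference was as large, -0.70 ± 0.21, but Au-NP replicate 3 lay within the control range and it did not pass (limma adjusted p = 0.0791). Without that array the first probe set had -0.74 and the second -0.94 (limma adjusted p = 0.0102 and 0.00252). The second did not pass with any other single array left out (limma adjusted p up to 0.238). With the probe sets of each gene averaged, mdh-2 had -0.66 ± 0.18 (limma adjusted p = 0.0574), and 3 genes rather than 4 fell, namely icl-1, pck-1 and ogdh-1. The mdh-2 call was also lost when any single array other than Au-NP replicate 3 was left out (limma adjusted p between 0.0567 and 0.159).

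The cytosolic mdh-1 read 13.16, 13.24 and 13.56 in the Au-NP arrays and 13.72, 13.46 and 13.68 in the controls, a difference of -0.30 ± 0.13 that did not pass (limma adjusted p = 0.185). The cytosolic aconitase aco-1, a homologue of the mammalian iron regulatory protein, read 9.91, 9.84 and 10.29 in the Au-NP arrays and 10.55, 10.33 and 10.52 in the controls. Its groups did not overlap, although Au-NP replicate 3 came close to control replicate 2, and the difference of -0.46 ± 0.13 (SE) missed the threshold (limma adjusted p = 0.0670). Without Au-NP replicate 3 mdh-1 had -0.42 and aco-1 -0.60 (limma adjusted p = 0.0285 and 0.00642). With any other single array left out neither passed (limma adjusted p up to 0.411 and 0.212).

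The cytosolic NADP-dependent isocitrate dehydrogenase idh-1 stood apart from the other members. Probe set 173986_at read 10.89, 11.41 and 11.84 in the Au-NP arrays and 11.64, 11.31 and 11.57 in the controls. Au-NP replicate 3 was the highest array and Au-NP replicate 1 the lowest, so the Au-NP group spanned the whole control range. The difference was -0.13 ± 0.22 (limma adjusted p = 0.802, 95% interval -0.65 to 0.40), and in the second probe set it was -0.07 ± 0.29 (limma adjusted p = 0.926). Without Au-NP replicate 1 both probe sets turned positive, at 0.12 and 0.19 (limma adjusted p = 0.760 and 0.746). With Au-NP replicate 3 left out the values were -0.35 and -0.41 (limma adjusted p = 0.179 and 0.109).

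The order of the arrays took 2 forms among the members. In 13 of the 15 probe sets Au-NP replicate 3 was the highest of the Au-NP arrays, which held for 36.4% of all probe sets, and in 13 control replicate 2 was the lowest control, against 32.3% of all. The exceptions in both counts were the 2 probe sets of ogdh-1, in which Au-NP replicate 3 was the lowest Au-NP array and control replicate 2 the highest control. Relative to the control mean, Au-NP replicates 1, 2 and 3 stood at -1.46, -1.34 and -0.47 for icl-1 (173301_s_at), at -0.92, -0.99 and -0.52 for pck-1 and at -0.60, -0.57 and -0.97 for ogdh-1 (173855_at). Without Au-NP replicate 3, 13 of the 15 probe sets fell, against 8.66% of all probe sets. By gene 9 of the 10 fell, all but idh-1, and the share of all genes was not counted for that fit.

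Without Au-NP replicate 1, 3 member probe sets fell (4.96% of all), namely pck-1 and both of ogdh-1. Without Au-NP replicate 2 only ogdh-1 173855_at did (1.82% of all), without control replicate 2 only pck-1 (2.84%), and without control replicate 3 only ogdh-1 173855_at (2.36%). Without control replicate 1, 0 fell by limma (2.47% of all), and 9 had an unadjusted p under 0.05. With variances estimated gene by gene and not moderated, 0 fell and 8 had an unadjusted p under 0.05.

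**Figure D3:**
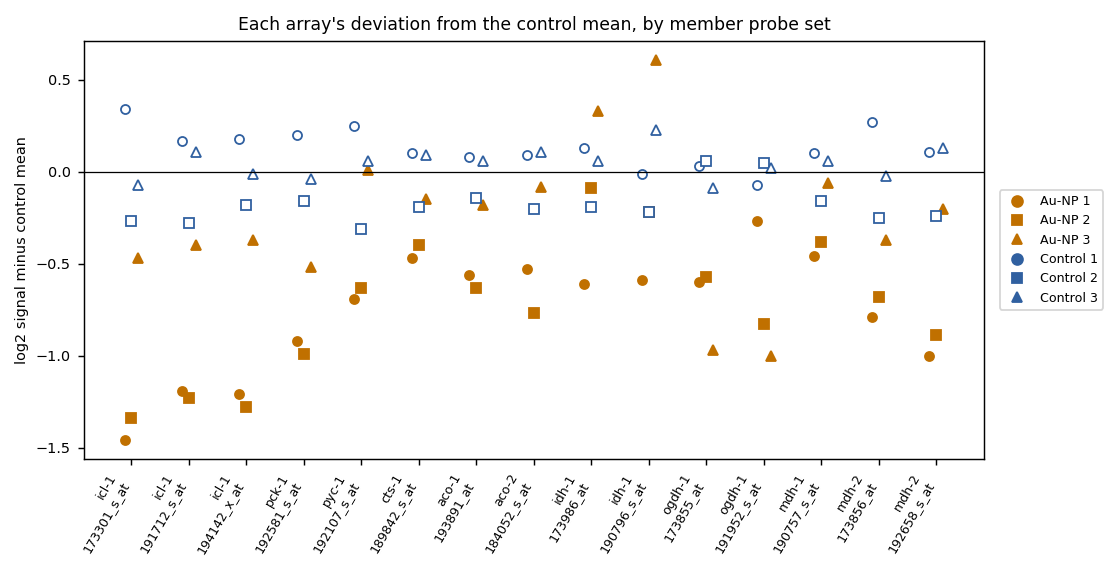
Log2 signal of each array less the mean of the 3 controls, by member probe set, with Au-NP arrays filled and controls open. For icl-1 and pck-1 Au-NP replicates 1 and 2 lie lowest and replicate 3 nearer to the controls, and for ogdh-1 replicate 3 lies lowest.

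The genes whose profiles over the 6 arrays lay nearest to each pattern were looked up, leaving out members and probe sets of possible cross-hybridization. Nearest to ogdh-1 173855_at, the member with the smallest p, were the calpain gene clp-1, with a root mean square difference of 0.060 log2 units after each profile was centred, sop-2 at 0.082, Y45G5AL.1 at 0.086, epic-2 at 0.089 and Y102A5C.6 at 0.090. The clp-1 signal was 11.45, 11.54 and 11.02 in the Au-NP arrays and 11.94, 12.04 and 11.92 in the controls, so Au-NP replicate 3 was lowest there too. Nearest to icl-1 194142_x_at, a comparison chosen after the values were seen, were F56D2.3 at 0.077, R12A1.3 at 0.081, the cuticle collagen gene sqt-3 at 0.115, the P-glycoprotein gene pgp-14 at 0.117 and mlt-11, a moulting gene, at 0.122. For sqt-3 the signal was 10.78, 10.70 and 11.86 in the Au-NP arrays and 12.42, 12.06 and 12.17 in the controls, which is the icl-1 order with replicate 3 nearest to the controls. These profiles are descriptions over 6 arrays.

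The other enzymes of these routes were read from lists of 64 genes, 61 of them with a probe set. Of the 61, 10 fell, 1 rose and 50 did not pass, against 4.94% of all genes that fell and 7.49% that rose, with a median of -0.15 over their 82 probe sets. With Au-NP replicate 3 left out, 14 fell and 2 rose, and the share of all genes was not counted for that fit. Calls were then more frequent over all 22548 probe sets too. Of those, 8.66% fell, against 5.68% with all arrays, and 2047 rose, against 1408. In the list of further citric acid cycle genes 3 of 18 fell and 0 rose (median -0.08). They were sdha-1, fum-1 and dlst-1, and the other 15 did not pass.

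The flavoprotein subunit of succinate dehydrogenase, sdha-1, had the smallest adjusted p of the enzymes examined. Its probe set 173430_at read 9.01, 9.09 and 8.93 in the Au-NP arrays and 10.30, 10.04 and 10.14 in the controls. The groups were far apart beside the spread within each, and the difference was -1.15 ± 0.09 (SE; limma adjusted p = 0.00239). It held in each of the 6 fits that left out 1 array, with limma adjusted p at or below 0.0187. The second sdha-1 probe set changed less, at -0.31 ± 0.07 (limma adjusted p = 0.0367), and lost its call in all 6 such fits (limma adjusted p between 0.0555 and 0.136).

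Fumarase, fum-1, which makes malate from fumarate, read 11.90, 11.41 and 11.40 in the Au-NP arrays and 12.57, 12.46 and 12.52 in the controls. All Au-NP arrays lay below all controls, and the difference was -0.95 ± 0.14 (SE; limma adjusted p = 0.00994). It also held in each of the 6 fits without 1 array (highest limma adjusted p 0.0499). The gene dlst-1, the succinyltransferase subunit that works in 1 complex with OGDH-1, fell by 0.35 on the log2 scale (SE 0.07, limma adjusted p = 0.0218), a call lost without Au-NP replicate 2 or any single control (limma adjusted p up to 0.0967). The dihydrolipoamide dehydrogenase dld-1, shared with pyruvate dehydrogenase, had -0.32 ± 0.11 (limma adjusted p = 0.117).

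The remaining subunits of succinate dehydrogenase did not pass. The iron-sulfur subunit sdhb-1 had 0.01 ± 0.10 and -0.05 ± 0.10 in its 2 probe sets (limma adjusted p = 0.963 and 0.811), with 95% intervals of -0.22 to 0.25 and -0.29 to 0.18. The membrane subunits mev-1 and sdhd-1 had -0.08 ± 0.10 and -0.07 ± 0.12 (limma adjusted p = 0.695 and 0.811). The succinyl-CoA ligase gene sucl-1 had -0.34 ± 0.09 (limma adjusted p = 0.0524). Positive differences stood in the same list, and none passed. The gamma subunit of NAD-dependent isocitrate dehydrogenase, idhg-1, had 0.37 ± 0.10 and 0.24 ± 0.11 (limma adjusted p = 0.0615 and 0.236), and the mitochondrial NADP-dependent idh-2 had 0.23 ± 0.09 (limma adjusted p = 0.146). Of genes picked out after their values were seen, idhg-2 had 0.26 ± 0.15 and sucg-1 0.22 ± 0.09 (limma adjusted p = 0.320 and 0.164). Au-NP values lay wholly above control values for idh-2, sucg-1 and the first idhg-1 probe set, and overlapped them for the others. How many of all probe sets lay wholly above was not counted, for these genes or for those named below. Wholly below lay 11.6% of all probe sets.

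At the entry of pyruvate, pdha-1, the alpha subunit of the first enzyme of pyruvate dehydrogenase, was the only listed gene that rose, and men-1, a malic enzyme, the only one of that list of 10 that fell. The pdha-1 probe set 193326_s_at read 12.62, 12.68 and 12.73 in the Au-NP arrays and 12.30, 12.31 and 12.27 in the controls, a difference of 0.39 ± 0.07 (SE; limma adjusted p = 0.0170). The call was lost without Au-NP replicate 2 or any single control (limma adjusted p up to 0.0764), and the other pdha-1 probe set had 0.23 ± 0.08 (limma adjusted p = 0.0990). The beta subunit pdhb-1, which acts in the same enzyme, had -0.29 ± 0.08 and -0.14 ± 0.08 (limma adjusted p = 0.0656 and 0.345). The men-1 difference was -0.48 ± 0.11 (limma adjusted p = 0.0305) in 1 of 2 probe sets, and -0.36 after the correction for gene span (limma adjusted p = 0.0772). That call too was lost without Au-NP replicate 2 or any single control (limma adjusted p up to 0.118).

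**Figure D4:**
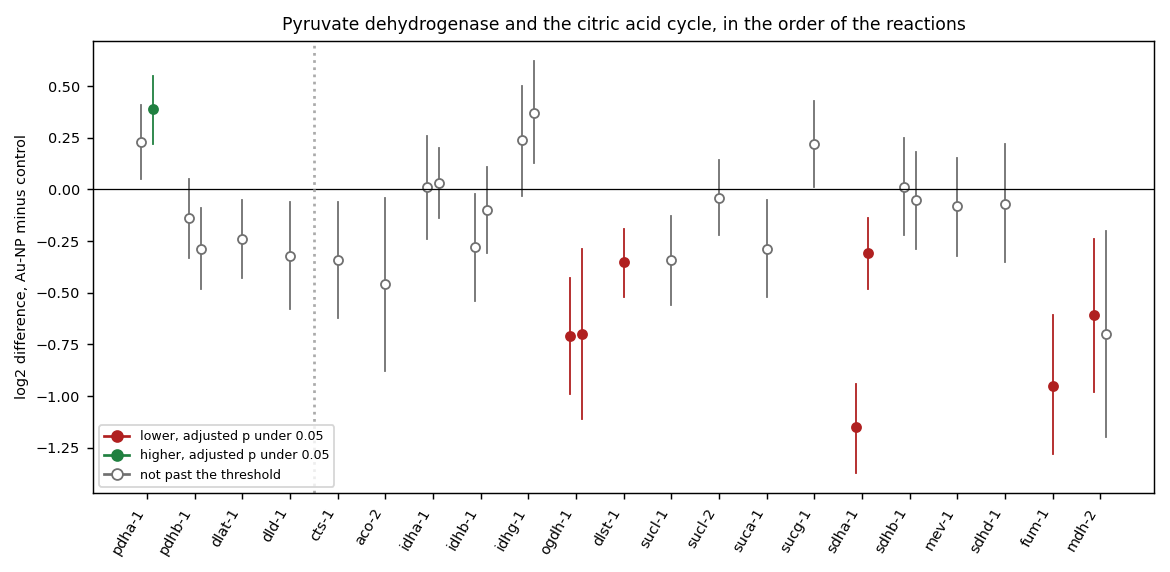
Log2 difference, Au-NP minus control, with 95% intervals for probe sets of selected genes of pyruvate dehydrogenase (left of the dotted line) and of the citric acid cycle. The cycle is drawn from citrate synthase to mitochondrial malate dehydrogenase. Not drawn are the listed genes dlat-2, idhg-2 and idh-2, at 0.19, 0.26 and 0.23, and ogdh-2 and sdha-2, at -0.18, -0.08 and -0.27. None of those passed. Red points fell and green points rose at a limma adjusted p under 0.05. Probe sets of ogdh-1, dlst-1, sdha-1, fum-1 and mdh-2 fell, 1 of pdha-1 rose, and those of the other genes drawn did not pass.

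Of the 4 further gluconeogenic genes 0 fell and 0 rose by limma, and 0 had an unadjusted p under 0.05. The second carboxykinase gene, pck-2, read 13.63, 13.47 and 13.68 in the Au-NP arrays and 13.64, 13.58 and 13.73 in the controls, a difference of -0.06 ± 0.09 (limma adjusted p = 0.775, 95% interval -0.26 to 0.15). Fructose-1,6-bisphosphatase, fbp-1, which takes 1 phosphate off fructose-1,6-bisphosphate, had wide spread in its Au-NP arrays. For 190701_s_at they read 11.04, 11.55 and 12.34, against 12.26, 11.68 and 12.09 in the controls. Its difference was -0.36 ± 0.31 (limma adjusted p = 0.548). With Au-NP replicate 3 left out it was -0.71 (limma adjusted p = 0.0347), and with any other single array left out it did not pass (limma adjusted p up to 0.937).

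In glycolysis 3 of 14 measured genes fell and 0 rose. Those that fell were the hexokinase genes hxk-1 and hxk-3 and the aldolase gene aldo-1. The pyruvate kinase gene pyk-2 read 10.18, 10.06 and 10.16 in the Au-NP arrays and 9.65, 9.66 and 9.95 in the controls, with groups apart and a difference of 0.38 ± 0.10 that missed the threshold (limma adjusted p = 0.0519, and 0.0435 without control replicate 3). With any other single array left out pyk-2 did not pass (limma adjusted p up to 0.158). The aldo-1 difference was -0.55 ± 0.09 (SE; limma adjusted p = 0.0123) in 1 probe set and -0.38 ± 0.11 in the other, which did not pass (limma adjusted p = 0.0702), and hxk-1 had -0.59 ± 0.13 and -0.58 ± 0.14 in its 2 probe sets (limma adjusted p = 0.0324 and 0.0407). The aldo-1 call was lost without Au-NP replicate 2 or control replicate 3 (limma adjusted p up to 0.0627). The hxk-1 calls held only without Au-NP replicate 3, and after the correction for gene span hxk-1 had -0.48 and -0.46 (limma adjusted p = 0.0601 and 0.0700). The hxk-3 difference was -0.35 ± 0.07 (limma adjusted p = 0.0251), and -0.21 after the same correction (limma adjusted p = 0.128). It was lost without Au-NP replicate 2 or any single control (limma adjusted p up to 0.106).

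Of 10 trehalose and glycogen genes 2 fell and 0 rose, and both work on glycogen. Glycogen phosphorylase, pygl-1, read 9.75, 9.36 and 9.67 in the Au-NP arrays and 10.74, 10.40 and 10.66 in the controls. The groups were apart, with a difference of -1.0 ± 0.13 (SE; limma adjusted p = 0.00760) that held in each fit without 1 array. Glycogen synthase, gsy-1, fell in both probe sets, by 0.50 and 0.55 on the log2 scale (limma adjusted p = 0.00937 and 0.0210). The first gsy-1 call held without any 1 array, and the second was lost without Au-NP replicate 2 or any single control (limma adjusted p up to 0.0798). The trehalose synthase genes tps-1 and tps-2 did not pass, with differences between -0.18 and -0.12. The trehalase gene tre-3 had positive differences in both probe sets, 0.30 ± 0.10 and 0.35 ± 0.12, with Au-NP values wholly above control values (limma adjusted p = 0.117 and 0.104). They passed without Au-NP replicate 3, at 0.38 and 0.45 (limma adjusted p = 0.0390 and 0.0242). With any other single array left out neither passed (limma adjusted p up to 0.301 and 0.272). Of 5 genes that carry propionate to succinyl-CoA, pcca-1 fell, by 0.42 in 1 of 2 probe sets (limma adjusted p = 0.0308, and with 5 arrays past the threshold only without Au-NP replicate 3).

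To set related genes against each other, the difference between 2 genes was taken within each array (probe sets averaged) and compared between groups for 6 pairs, chosen with the values known. An exact two-sided permutation test of 3 arrays against 3 cannot give a p below 0.10, so no pair could pass. The pck-1 minus pck-2 difference was -1.24, -1.15 and -0.90 in the Au-NP arrays and -0.13, -0.44 and -0.47 in the controls, a shift of -0.75 with groups apart (exact permutation p = 0.10, 0.15 adjusted over the 6 pairs). The pck-1 probe set has a suffix of possible cross-hybridization, so its signal may not be specific to that gene. The shifts of mdh-2 against mdh-1 (-0.36), ogdh-1 against ogdh-2 (-0.57) and sdha-1 against sdhb-1 (-0.71) had the same exact p and adjusted value. For aco-2 against aco-1 the within-array difference averaged 1.03 ± 0.12 in the Au-NP arrays and 1.03 ± 0.06 in the controls (SD, n = 3 each, exact permutation p = 1). For idh-1 against idh-2, its mitochondrial counterpart, the shift was -0.33 with overlapping groups (exact permutation p = 0.20, 0.24 adjusted). Without Au-NP replicate 3, an alternative chosen after seeing the data, the shifts were -0.85 for pck-1, -0.42 for mdh-2, -0.46 for ogdh-1, -0.59 for sdha-1, -0.05 for aco-2 and -0.54 for idh-1, each against its partner, and the idh-1 groups were then apart.

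**Figure D5:**
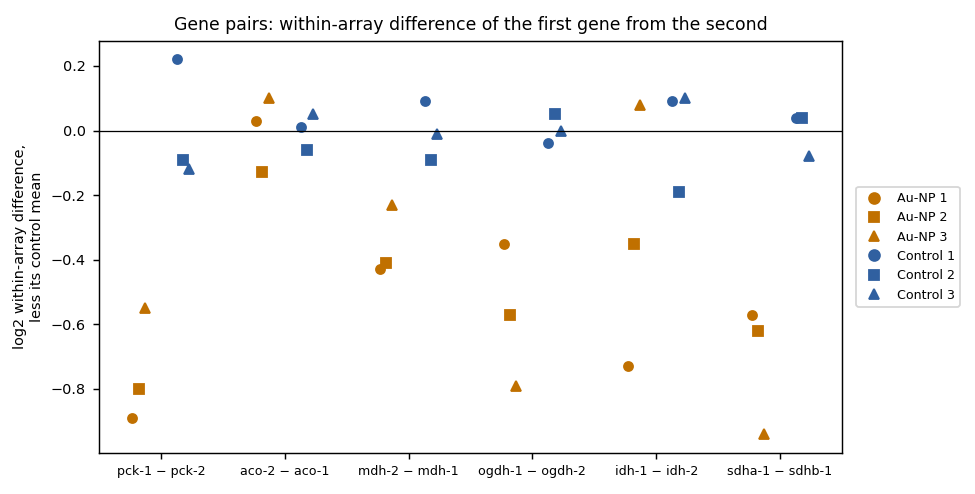
Within-array log2 difference between the genes of 6 pairs, less the mean of that difference in the controls, with Au-NP arrays left of controls in each pair. The Au-NP arrays lie wholly below the controls for pck-1 against pck-2, mdh-2 against mdh-1, ogdh-1 against ogdh-2 and sdha-1 against sdhb-1, and the groups overlap for aco-2 against aco-1 and idh-1 against idh-2.

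Markers of several tissues also differed between the groups. Over all genes 4.94% fell and 7.49% rose, and counts of 1 in 10 markers lie near these shares. Of 10 body-wall muscle markers 5 fell and 0 rose, and their summed log2 signal was 16.06 to 16.20 in the Au-NP arrays and 16.45 to 16.51 in the controls. Of 10 pharynx markers 6 fell and 0 rose, with sums of 12.53 to 12.74 and 13.22 to 13.28, and of 10 germ-line markers 4 fell and 0 rose, with sums of 12.10 to 12.61 and 12.87 to 13.17, each with the Au-NP range first. Intestinal markers had 1 of 10 lower and 1 higher, with sums of 15.44 to 15.50 in the Au-NP arrays and 15.53 to 15.55 in the controls. Hypodermal markers had 1 lower and 2 higher of 10, and neuronal markers 1 lower and 1 higher of 10, and the summed ranges of both overlapped between groups. Sperm markers had 0 of 10 past the threshold and oocyte markers 1 lower, also with overlapping sums.

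Au-NP replicate 3 was the lowest Au-NP array in the median of sperm, oocyte and germ-line markers. Relative to the control mean, the median marker probe set of Au-NP replicates 1, 2 and 3 stood at 0.15, 0.10 and -0.88 for sperm, at 0.00, -0.15 and -0.94 for oocytes and at -0.39, -0.66 and -0.88 for the germ line. For body-wall muscle the 3 medians were -0.38, -0.45 and -0.35. Without Au-NP replicate 3, a setting chosen after seeing the data, 5 of 10 hypodermal markers fell and 3 rose, 6 body-wall muscle, 6 pharynx and 5 germ-line markers fell, and the counts of the other lists were the same. In that fit 8.66% of all 22548 probe sets fell and 2047 rose, and the share of all genes was not counted. The part of tissue composition in the enzyme differences was not tested, and in whole-worm RNA fewer cells of a type and less RNA per cell cannot be told apart.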

How the data were processed

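The deposited table holds 1 log2 value per probe set and array, made with RMA (background correction, quantile normalization, probe summary) per the submitters' processing notes. Partek 6.4 is listed there too, with no role. The scale is inferred from the values. The array files and labels name no build, and the WBcel235 table served only for symbols and spans, so no coordinates are printed. After 77 control probe sets were left out, 22548 were tested. The platform annotation gave 20766 of them 1 symbol, and 20701 were found in the WBcel235 gene table, which changed 0 symbols.

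The 2 groups were tested in R 4.3.3 with limma 3.58.1 (group alone, two-sided, Benjamini-Hochberg over all 22548 probe sets, threshold 0.05). A gene fell or rose when at least 1 of its probe sets passed. The number of arrays limits the precision. Between 4 and 15 values were identical in any pair of arrays, so no array was a copy of another. Each was treated as its own sample, which does not show that the dishes were separate cultures. The fit was tested on simulated data with independent noise in every value and no effect shared across an array. That test therefore cannot speak for calls that change when 1 array is left out.

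The members, lists and naming rule (all members, listed genes past the threshold, up to 4 others per list by p) were chosen with earlier results of these data known. Alternatives were a replicate block, leaving out each array, renormalization, centring, span correction, level filters, array weights, suffix and variance settings, 1 or averaged probe sets per gene, and other thresholds. Detection calls and scanner output were not analysed here.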

Additional observations from a re-analysis of the deposited data

How the results depend on the processing

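With 3 arrays a group, each of the 7 calls of member probe sets was lost in at least 2 of the 6 fits that left out 1 array, and no member was higher at the threshold under any alternative run. Leaving out 1 array gave 0 to 13 member probe sets lower (7 with all arrays), 0 to 9 member genes lower (4), 4 to 14 listed pathway genes lower (10) and 0 to 2 higher (1), and over all probe sets 410 to 1953 lower (1281) and 146 to 2047 higher (1408). With the replicate number as a block 4 member probe sets fell. Same-numbered arrays deviated with r of -0.33, 0.43 and 0.22, and not every array correlated best with its own number. Deviations from a group mean of 3 arrays cancel out, which ties these correlations to each other. They cannot decide whether the numbers pair the samples.

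Member probe sets that fell numbered 4 with trend and robust variances (icl-1 not among them), 3 with 1 probe set per gene, 2 (of 2 genes, and of 4 probe sets left) without cross-hybridization suffixes, and 0 (of 0 genes) both with gene-wise variances and at an adjusted p of 0.01. Over all probe sets 628 fell without those suffixes, 746 with 1 probe set per gene, 39 with gene-wise variances and 383 at 0.01, and 33, 121, 2372 and 2484 rose with gene-wise variances, at 0.01, with array weights and at 0.1. Listed pathway genes that fell numbered 17 with array weights and at 0.1, 4 without suffixes and at 0.01, and 0 with gene-wise variances (18 at an unadjusted p under 0.05). Those that rose numbered 2 with median centring, with span correction and above the lower filter on level, 3 above the median level, with trend and robust variances and at 0.1, 4 with array weights, and 0 without suffixes, with gene-wise variances and at 0.01 (4, 5 and 6 at an unadjusted p under 0.05).

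Some differences near 0 changed sign: with 1 array left out idh-1 ranged from -0.35 to 0.12 and from -0.41 to 0.19 in its 2 probe sets (in the second also 0.01 and 0.05), mmaa-1 from -0.37 to 0.19, pck-2 from -0.10 to 0.01 and sdhb-1 from -0.08 to 0.09 (also -0.01); pck-2 had 0.04 and ogdh-2 0.08 with span correction; sdhb-1 had -0.03, -0.05 and -0.02 with quantile normalization again, span correction and array weights. With probe sets averaged there is no value per probe set. Why values and counts shifted between settings was not tested.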
